A study of Mus musculus with 23 samples.

Results

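Microglia gated on the surface lectin Clec7a from 12-month-old APPswlnd mice were compared with microglia from 12-month-old C57BL6 wild-type (WT) mice. The comparison held the 4 samples titled as microglia of APP mice at 12 months and the 4 titled as microglia of WT mice at 12 months, which are 8 of the 23 samples in the series, over all 22203 probe sets of the array. The cells came from cortex and hippocampus and were sorted as CD45+ and CD11b+ before total RNA was hybridised to expression arrays. The labels describe the APP cells as active microglia and their mice as having pathology, and they name no Clec7a gate for the WT cells. Genotype, pathology and gate therefore differed together between the groups and cannot be told apart. APPswlnd mice carry a transgene for human amyloid precursor protein with mutations of familial Alzheimer disease, and its promoter is not named in the labels. The labels call the replicates biological without saying that each came from its own animal, so p-values measure the spread between these samples. As references, 3 further groups were used: the same APP strain at 3 months (n = 3, no gate named), WT at 3 months (n = 4) and Clec7a-gated microglia of P301S (PS19) tau mice (n = 4), whose titles say 12 months and whose age field says 9 months. The 4 samples titled as microglia of tau mice at 3 months were not compared, but entered the fit of all 23 samples that gave the p-values.

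Microglia are the resident macrophages of the brain, and they take up debris and lipid, present antigen and secrete growth factors. Around amyloid deposits they change state: genes of the resting state such as P2ry12 and Tmem119 go down, while lipid handling, lysosomal and growth factor genes go up. Clec7a, which encodes the pattern recognition receptor Dectin-1, is a surface marker of that state. The account below looks past the best known genes of that state to transporters, channels, transcription factors, metabolism and the many differences of middle size.

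Levels are the deposited log2 values after robust multi-array averaging (RMA). Each difference is given on the log2 scale as gated APP minus WT with its standard error (SE), from limma's moderated test on all 23 samples, and a probe set was called when its Benjamini-Hochberg adjusted p over all 22203 was under 0.05. A group was taken to lie within background when its mean was under the level that 95% of the probe sets for odorant, vomeronasal and taste (chemosensory) receptors stayed below, 8.10 in WT and 7.77 in gated APP. Where the lower group lay within background, the fold is given as a bound against that level, and no fold is given where both groups did. A less abundant cell type and less RNA per cell cannot be told apart in these bulk samples.

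Array medians were 6.87 to 7.13 over the series. WT replicates 2 and 4 had the highest medians of the 8 samples, 7.13 and 7.11, and their chemosensory receptor medians were 6.32 each, against 5.93 and 5.62 in WT replicates 1 and 3 and 5.75 to 6.16 in the gated APP samples. All 20 measured microglia identity genes were above background in at least 1 of the groups, and 3 of them were called higher and 9 lower. Ptprc, which encodes CD45, was 15.57 ± 0.27 in WT and 15.44 ± 0.22 (SD, n = 4 each) in gated APP and was not called (adjusted p = 0.714). Itgam, which encodes the other sort marker CD11b, was called lower, with a gap of 0.44 between the groups. That call was lost with either WT pair left out. It was also lost without any 1 of WT replicates 1, 3 and 4 or of APP replicates 1, 3 and 4. Clec7a itself had no probe set with its symbol, so the gate could not be checked on its own gene. Of the markers of other cell types, 13 of 18 for neurons, 12 of 14 for the oligodendrocyte lineage, 11 of 16 for astrocytes, 12 of 17 for endothelial cells and pericytes, 11 of 14 for monocytes, 10 of 12 for neutrophils, 8 of 13 for dendritic cells and 15 of 18 for T, NK and B cells were within background in both groups. The summed level of the 16 border and perivascular macrophage markers, taken over linear values and given as log2, was 14.37 to 15.09 in the WT samples and 12.44 to 12.80 in the gated APP samples. Of these 16 markers 9 were within background in both groups, 1 was called higher and 2 lower, and the median difference was -0.09. The scavenger receptor Stab1 was among the lower ones, at 14.33 ± 0.38 in WT and 11.17 ± 0.14 in gated APP, and the part of such cells in the results was not tested.

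In all, 2015 probe sets were called (9.08%), 1243 higher (5.60%) and 772 lower (3.48%) in gated APP microglia. Among the 8368 probe sets above background in at least 1 of the groups the shares were 13% higher and 7.04% lower. The counts of list members given below are to be read beside these shares. Lists differed in how many members lay within background in both groups. A list's share beside 9.08% can therefore differ from its share among members above background. Groups of 4 that did not overlap, whether called or not, made up 6.72% of probe sets on the higher side and 4.83% on the lower side. Large differences were few on the lower side: 219 of the higher and 39 of the lower probe sets differed by over 4-fold, 563 and 349 by 2- to 4-fold, and 461 and 384 by less. Of the higher probe sets, 797 were above background in both groups and 289 only in gated APP. Of the lower ones, 516 were above background in both groups and 73 only in WT.

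The number of calls depended on which WT samples were used. Without WT replicates 2 and 4, 613 of the 1243 higher calls and 494 of the 772 lower calls were kept. With the other pair left out instead, replicates 1 and 3, 1144 of the higher calls and 443 of the lower calls were kept. A core of 581 higher and 259 lower probe sets was called whichever pair was left out. No called difference turned its sign without replicates 2 and 4, and the median change in size was 0.21. The naming rule picked 267 called probe sets, not all of which are described below, and 180 of them also kept the call with each of the 8 samples left out in turn and with either pair of WT samples left out. A called gene described below with no remark is among those 180, or, where it was named for a count, kept its call with either pair left out. Where a described gene lost its call, the value or adjusted p without a WT pair is given beside it. The rule took list members only where the groups did not overlap, so their lack of overlap was set by that choice.

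**Figure D1:**
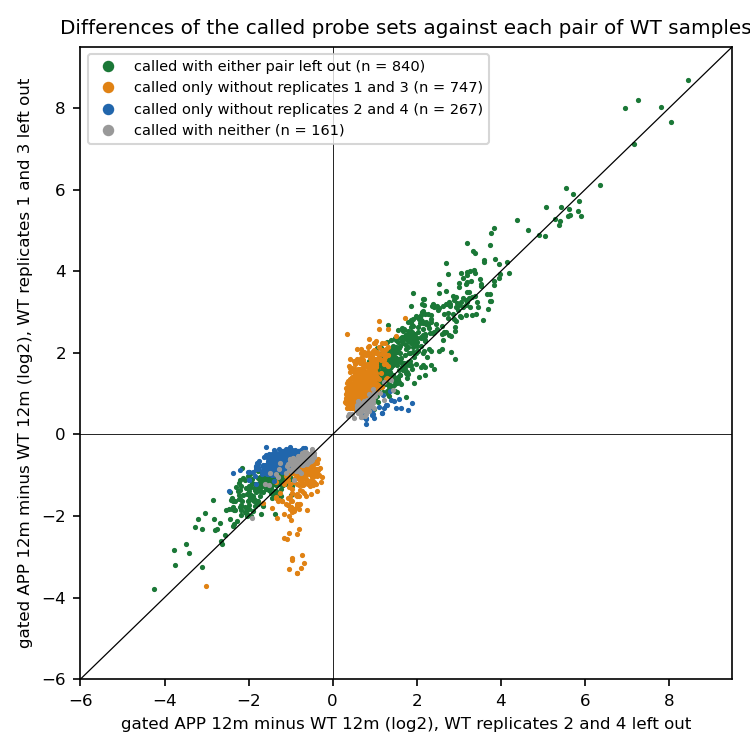
Gated APP minus WT difference (log2) of the 2015 called probe sets, with WT replicates 2 and 4 left out on the horizontal axis and replicates 1 and 3 left out on the vertical axis; each point is a probe set and the line marks equal values. The 840 probe sets in green were called against either pair, while 747 in orange were called only without replicates 1 and 3 and 267 in blue only without replicates 2 and 4.

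Transporters for fuel differed in both directions. The glucose transporter Slc2a1 (GLUT1), the lactate exporter Slc16a3 (MCT4) and the cystine importer Slc7a11 were higher in gated APP microglia, whereas Slc2a5 (GLUT5), the fructose transporter characteristic of microglia, and the glutamine and neutral amino acid carriers Slc38a2 and Slc7a8 were lower. The 469 transporter probe sets were called higher in 23 and lower in 22 cases, shares of 4.90% and 4.69%, near those over the whole array. Slc2a1 was 15.61, 15.09, 15.82 and 14.81 in WT replicates 1 to 4 and 18.16, 18.41, 17.42 and 17.61 in gated APP replicates 1 to 4. Every gated sample lay above every WT sample, by 2.57 ± 0.27 on average (SE, adjusted p = 6.16e-07), a 5.93-fold difference. Slc2a5 was 16.94, 16.39, 17.01 and 16.37 in WT and 14.40, 14.83, 14.62 and 14.58 in gated APP, a difference of -2.07 ± 0.28 (adjusted p = 1.38e-05). The groups did not overlap in Slc2a5 either, with all gated samples low. Slc16a3 was within background in WT, at 8.04, 7.01, 8.36 and 7.67, and at 10.48, 10.96, 9.95 and 9.93 in gated APP, so that it was at least 4.68-fold higher (adjusted p = 5.87e-07).

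Among 51 amino acid transporters, 4 were called higher and 4 lower. Slc7a11, the cystine and glutamate exchanger that feeds glutathione synthesis, was 8.43, 8.40, 7.81 and 7.84 in WT and 9.76, 9.68, 9.92 and 9.75 in gated APP, 1.66 ± 0.30 higher (adjusted p = 0.000531). The gated samples were within 0.24 of each other and above all WT samples. Slc38a2, the sodium-coupled glutamine carrier SNAT2, was 15.24, 14.95, 15.47 and 14.89 in WT and 13.94, 13.88, 14.04 and 13.47 in gated APP, a difference of -1.30 ± 0.21 (adjusted p = 0.000117). Slc7a8, a light chain of the heteromeric exchangers of large neutral amino acids, was 13.10 ± 0.40 in WT and 11.97 ± 0.15 in gated APP, a difference of -1.12 ± 0.24 (adjusted p = 0.00295). The lysosomal amino acid exporter Slc36a1 fell by 1.09 (adjusted p = 0.0102, and 0.109 without WT replicates 1 and 3). Slc38a6, an orphan member of the glutamine carrier family, was 0.83 higher (adjusted p = 0.026, and 0.207 without WT replicates 2 and 4).

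The organic anion carrier Slco2b1 was 15.18, 14.76, 15.24 and 14.49 in WT and 13.53, 13.57, 13.67 and 13.21 in gated APP, a difference of -1.42 ± 0.23 (adjusted p = 0.000159). Slc16a6, a member of the monocarboxylate family, was 13.34 ± 0.30 in WT and 12.16 ± 0.16 in gated APP (difference -1.18 ± 0.19, adjusted p = 0.000116). Of 69 monocarboxylate and organic ion transporters 1 was called higher, Slc16a3, and 4 lower, a share of 7.25% against 9.08% over all probe sets. Only 15 of the 69 were above background in at least 1 of the groups, with 1 called higher and 3 lower. The iron exporter Slc40a1 (ferroportin) was 9.74, 9.76, 10.12 and 9.31 in WT and 7.61, 8.28, 7.86 and 7.90 in gated APP, a difference of -1.82 ± 0.23 (adjusted p = 5.72e-06). The highest gated value of Slc40a1 was 1.03 below the lowest WT value. The zinc importer Slc39a12 differed by -1.71 ± 0.30 (adjusted p = 0.000337). On the higher side of the 32 metal transporters stood the phagosomal metal pump Slc11a1 (NRAMP1), by 0.97, and the copper importer Slc31a1, by 0.92. Neither was called without WT replicates 2 and 4 (adjusted p = 0.193 and 0.199).

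Of 48 ATP-binding cassette transporters 3 were called higher and 4 lower. Abcd2, the peroxisomal importer of very long chain fatty acids, was 12.12, 11.99, 12.12 and 11.90 in WT and 13.06, 13.34, 12.85 and 12.94 in gated APP, 1.01 ± 0.16 higher (adjusted p = 0.000141). The groups were tight and apart. Abcc3, an organic anion exporter, was 11.63 ± 0.39 in WT and 10.24 ± 0.28 in gated APP (difference -1.40 ± 0.25, adjusted p = 0.000596). Abcb1b, a P-glycoprotein, was 1.73 higher (adjusted p = 0.003, and 0.0845 without WT replicates 2 and 4). The cholesterol exporter Abca1 was 13.15, 12.60, 13.14 and 12.04 in WT and 11.64, 11.96, 11.70 and 11.40 in gated APP, a difference of -1.06 ± 0.28 (adjusted p = 0.0158). That call was lost without WT replicate 1 and without replicates 1 and 3 (difference -0.65, adjusted p = 0.178). Abca1 was also -1.49 ± 0.28 against gated tau microglia (adjusted p = 0.00492), which stood at 13.16 ± 0.39 (SD, n = 4), above both groups.

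The phosphate, ADP and citrate carriers of the inner mitochondrial membrane, Slc25a3, Slc25a4 and Slc25a1, were called higher by 0.88, 0.88 and 1.01. None of them was called without WT replicates 2 and 4 (adjusted p = 0.0671, 0.365 and 0.422). Their levels split the WT samples: Slc25a3 was 15.40, 14.89, 15.65 and 15.04 in WT replicates 1 to 4, low in replicates 2 and 4, against 16.03, 16.29, 16.09 and 16.08 in gated APP.

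**Figure D2:**
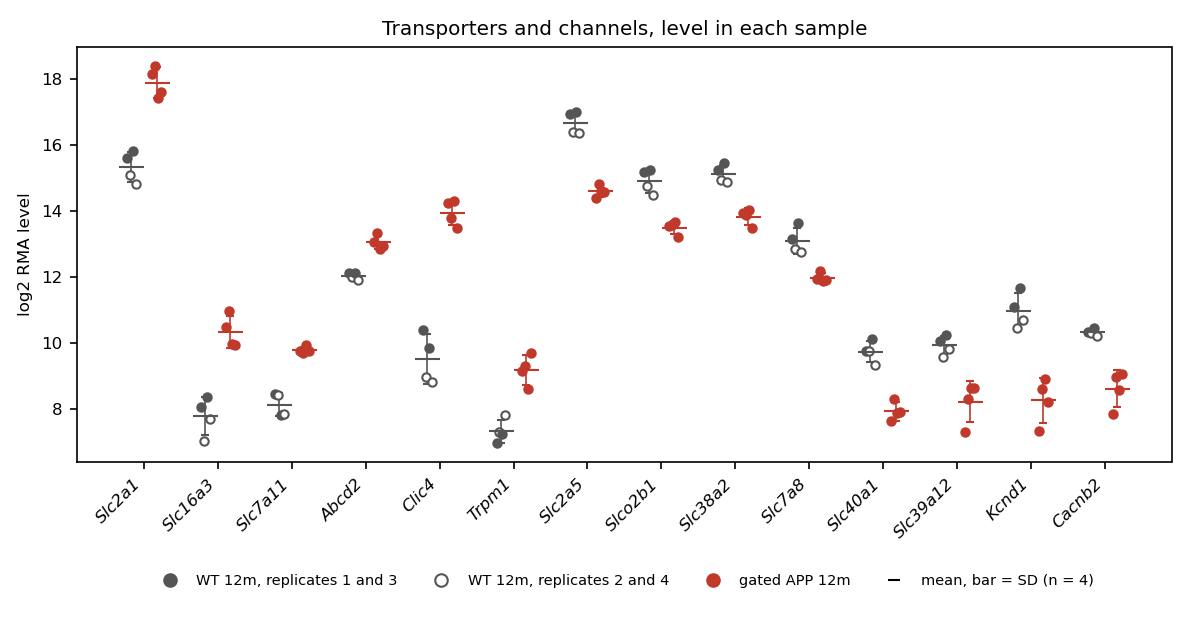
Log2 RMA level of 14 transporters and channels in each WT 12-month sample (grey, replicates 2 and 4 open) and each gated APP 12-month sample (red), with group means and SD. The first 6 genes lie higher in gated APP and the last 8 lower. The groups do not overlap in any of the 14, which the rule that picked them required.

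Of 203 channel probe sets 8 were called higher and 9 lower, a share of 8.37% against 9.08% over all probe sets. Clic4, an intracellular chloride channel protein that also shapes the actin cortex, had the largest difference among them: 10.39, 8.97, 9.85 and 8.81 in WT and 14.24, 13.80, 14.30 and 13.47 in gated APP, 4.45 ± 0.36 higher (adjusted p = 7.66e-09), or 21.8-fold. The lowest gated value of Clic4 was 3.08 above the highest WT value. Kcnd1, which encodes the A-type potassium channel Kv4.1, was 11.07, 10.45, 11.67 and 10.70 in WT and 7.33, 8.58, 8.90 and 8.20 in gated APP, a difference of -2.72 ± 0.33 (adjusted p = 3.46e-06). Cacnb2, an auxiliary subunit of voltage-gated calcium channels, was 10.31, 10.28, 10.46 and 10.19 in WT and 7.82, 8.97, 8.57 and 9.05 in gated APP, a difference of -1.71 ± 0.21 (adjusted p = 4.46e-06). WT values of Cacnb2 spanned 0.27, while the gated samples spread over 1.23 below them. Trpm1, a cation channel of the melastatin family, was within background in WT and at 9.18 ± 0.46 in gated APP, at least 2.11-fold higher (adjusted p = 2.03e-06). Trpm1 was also higher than in gated tau microglia, by 1.82 ± 0.22 (adjusted p = 2.1e-05). The phospholipid scramblase Ano6 fell by 0.90 (adjusted p = 0.00203).

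Transcription factor families differed in the direction of their calls. Of 33 probe sets for AP-1, ATF and CREB factors, 2 were called higher and 10 lower (median difference -0.22, against -0.06 over all probe sets). Of 23 for KLF and EGR factors none was called higher and 5 were called lower. Of 46 for ETS, RUNX, CEBP and macrophage lineage factors 3 were higher and 10 lower, and of 40 for MiT and Myc-type basic helix-loop-helix factors 7 were higher and 1 lower. Without WT replicates 2 and 4 the counts were 1 and 8, 0 and 6, 1 and 8, and 5 and 2. Without replicates 1 and 3 they were 2 and 7, 0 and 3, 3 and 8, and 9 and 1. Of 23 clock gene probe sets 3 were called higher and 4 lower (30.4%, against 9.08% over all probe sets). Most of these lower calls were within background in both groups. Among the 13 clock probe sets above background in at least 1 of the groups 3 were higher and 1 lower. SMAD, TGF-beta and BMP signalling genes were called in both directions, 4 higher and 5 lower of 47 (19.1%). Among the 22 of them above background in at least 1 of the groups 2 were higher and 5 lower. Of 17 IRF and STAT factors 3 were higher and none lower (17.6%), and among the 12 above background in at least 1 of the groups 2 were higher. The counts were 3 and 2 of 47 nuclear receptors (10.6%), 0 and 1 of 22 NF-kB factors and their regulators (4.55%) and 2 and 3 of 171 FOX, SOX, GATA, homeobox and other developmental factors (2.92%).

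The largest rise among the factors was that of Nfil3, a basic leucine zipper repressor known from the circadian clock and from immune cells. It was 8.35, 8.79, 8.33 and 7.92 in WT and 13.65, 13.76, 12.46 and 13.13 in gated APP, 4.90 ± 0.42 higher (adjusted p = 1.78e-08), or 29.9-fold. Hif1a, the oxygen-regulated subunit of the hypoxia-inducible factor, was 11.99, 11.44, 12.08 and 11.82 in WT and 14.81, 15.28, 14.60 and 14.97 in gated APP, 3.08 ± 0.21 higher (adjusted p = 4.6e-10). Between the highest WT and the lowest gated sample lay 3.67 for Nfil3 and 2.52 for Hif1a. Bhlhe40, a repressor of the same clock network that also acts in macrophage proliferation, was within background in WT (6.96, 6.70, 6.69 and 6.58) and at 10.56, 9.72, 9.88 and 9.38 in gated APP, at least 3.44-fold higher (adjusted p = 2.01e-09). Prdm1, which encodes the repressor Blimp-1, was 9.53, 9.08, 9.87 and 9.01 in WT and 12.09, 12.36, 11.55 and 11.32 in gated APP, 2.46 ± 0.32 higher (adjusted p = 1.03e-05).

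Srebf2, the regulator of sterol synthesis, was 9.07, 9.47, 9.79 and 9.59 in WT and 10.71, 11.24, 10.87 and 10.81 in gated APP, 1.43 ± 0.22 higher (adjusted p = 7.48e-05). Maff, a small Maf protein that pairs with NRF2 and other zipper factors, was 8.52, 7.68, 8.69 and 8.06 in WT and 9.90, 9.71, 9.61 and 9.93 in gated APP, 1.55 ± 0.24 higher (adjusted p = 8.44e-05). Gated values of Maff spanned 0.32, and WT replicates 2 and 4 were the lowest samples. Nr4a3, an orphan nuclear receptor, was within background in WT and at least 1.86-fold higher (adjusted p = 0.000262). Stat2, of the interferon pathway, was 1.15 ± 0.25 higher (adjusted p = 0.00338). Its partner Irf9 was 0.89 higher but was not called without WT replicates 2 and 4 (adjusted p = 0.321). Mitf, of the lysosomal MiT family, was 0.84 higher and was not called without them either (adjusted p = 0.461).

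The AP-1 subunits Jun, Fos and Fosb were lower. Jun was 16.92, 17.03, 16.99 and 16.71 in WT and 14.94, 15.15, 15.37 and 14.96 in gated APP, a difference of -1.81 ± 0.19 (adjusted p = 4.59e-07). Fos was 13.56, 13.53, 14.03 and 13.86 in WT and 11.63, 12.36, 11.98 and 12.04 in gated APP, a difference of -1.74 ± 0.25 (adjusted p = 3.97e-05). No gated sample reached a WT sample in either gene, and WT replicates 2 and 4 were not apart from 1 and 3. Fosb and Atf3, of the same family, fell by 1.44 and 1.5 (adjusted p = 0.00579 and 0.000106). Egr1 was 16.54, 16.60, 17.10 and 17.04 in WT and 15, 15.81, 15.37 and 15.57 in gated APP, a difference of -1.38 ± 0.27 (adjusted p = 0.00123). Klf6 was 16.32 ± 0.24 in WT and 14.92 ± 0.40 in gated APP, a difference of -1.40 ± 0.22 (adjusted p = 9.36e-05). Klf2, a factor of quiescent endothelial and myeloid cells, was 9.87 in WT and within background in gated APP, at least 4.29-fold lower (adjusted p = 0.000353). Ddit3, the CHOP factor of the integrated stress response, had 2 probe sets, with differences of -1.73 and -1.74. Jun, Fos, Fosb, Atf3, Egr1 and Klf6 belong to the immediate early genes, and all of them were low in every gated sample.

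Sall1, Mef2a and the ETS factors Etv5 and Etv1 were lower, while the ETS factors Ets2 and Etv3 were called higher. Sall1, the zinc finger factor that maintains the microglial program, was 12.27, 12.02, 12.46 and 12.05 in WT and 9.56, 10.82, 9.88 and 10.49 in gated APP, a difference of -2.01 ± 0.35 (adjusted p = 0.000356). Etv5, an ETS factor downstream of receptor kinases, was 15.06, 14.46, 15.20 and 15.30 in WT and 12.85, 13.94, 13.78 and 13.65 in gated APP, a difference of -1.45 ± 0.26 (adjusted p = 0.000568). Its relative Etv1 fell by 1.62 (adjusted p = 0.000677). Ets2 and Etv3 were within background in WT and at least 2.51-fold and at least 1.83-fold higher (adjusted p = 0.00537 and 0.00665), and neither was called without WT replicates 2 and 4 (adjusted p = 0.162 and 0.126). Mef2a, a regulator of microglial enhancers, fell by 1.08 (adjusted p = 0.00019). Nrip1, a corepressor of nuclear receptors, was 10.85, 10.97, 10.94 and 10.58 in WT and 9.03, 9.72, 7.98 and 8.62 in gated APP, a difference of -2 ± 0.32 (adjusted p = 0.000163). The gated samples of Nrip1 spread over 1.74 and all lay below the WT samples.

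**Figure D3:**
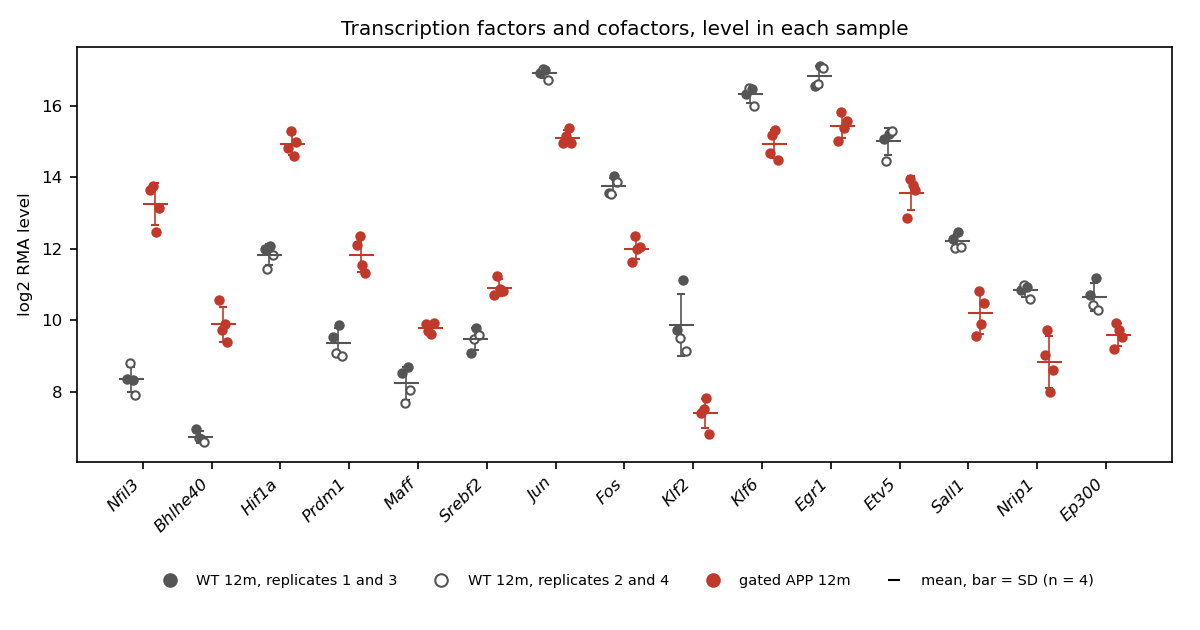
Log2 RMA level of 15 transcription factors and cofactors in each WT 12-month sample (grey, replicates 2 and 4 open) and each gated APP 12-month sample (red), with group means and SD. The groups do not overlap in any of the 15, which the rule that picked them required. Nfil3 and Hif1a show the widest gaps above WT.

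With all 4 WT samples, chromatin genes were more often called lower than higher. Of 80 remodellers, readers and acetyltransferases 2 were called higher and 9 lower (13.8%, against 9.08% over all probe sets). All of these calls were among the 57 members above background in at least 1 of the groups. Of 105 histone deacetylases, demethylases and methyltransferases 3 were higher and 6 lower (8.57%). With WT replicates 1 and 3 left out the counts were 6 and 4, and 7 and 2, so the balance between the directions rested on which WT samples were used. The acetyltransferase Ep300 (p300) was 10.70, 10.42, 11.19 and 10.28 in WT and 9.18, 9.93, 9.73 and 9.53 in gated APP, a difference of -1.05 ± 0.22 (adjusted p = 0.00196). The chromodomain helicase Chd9 and the ARID protein Arid3b differed by -1.63 ± 0.30 and -1.46 ± 0.26 (adjusted p = 0.00065 and 0.000572). The histone code reader Phf14 fell by 0.90 (adjusted p = 0.000878). On the higher side, the nucleosome-binding protein Hmgn3 was 8.25, 7.89, 8.74 and 8.40 in WT and 9.86, 10.27, 10.63 and 10.18 in gated APP, 1.92 ± 0.23 higher (adjusted p = 4.42e-06), and the deacetylase Hdac9 was 1.13 higher (adjusted p = 0.00216).

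The promoters of the called genes were searched for motifs of factors named above, in the 250 bases before each RefSeq start (build GRCm38.p6). Of 19505 named genes on the array, 15691 had at least 1 promoter in the table. The AP-1 motif TGANTCA, searched on both strands like the others, was in 6.26% of the promoters of genes on the array, in 8.49% of those of the higher core genes called whichever WT pair was left out, and in 2.82% of those of the lower core genes. The interferon response core GAAANNGAA was in 6.88%, 12.0% and 5.24%, and the PU.1 motif GAGGAAGT in 2.27%, 2.51% and 6.45%. The cAMP response motif TGACGTCA was in 1.99%, 1.93% and 2.82%, the CLEAR motif TCACGTGA of lysosomal genes, which holds an E-box, in 1.04%, 1.16% and 0.806%, and the antioxidant response motif TGACNNNGC in 10.7%, 13.7% and 7.66%. The differences between these shares depended on the set: over all genes called higher and all called lower, the AP-1 motif was in 6.36% and 4.69%, the interferon response core in 9.32% and 5.97%, the PU.1 motif in 3.48% and 3.27%, the cAMP response motif in 2.61% and 2.42%, the CLEAR motif in 1.22% and 0.569% and the antioxidant response motif in 14% and 11.1%. Over the higher core there were 518 promoters of 416 genes, and over the lower core 248 of 179 genes. These shares describe letters in short windows and were not tested. The windows below were chosen after their matches were seen, to show what such matches look like in factors and regulators that differed, and the matches named here are in capitals. Maff (higher, chr15:79347270-79347519, plus strand) holds a CLEAR match whose first base lies 192 bases before the start and a cAMP response match 29 bases before it. Prdm1 (higher, chr10:44458749-44458998, minus strand) holds an AP-1 match 48 bases before its start. Rapgef5 (lower, chr12:117516276-117516525, plus strand), a Rap GTPase activator described below, holds a PU.1 match 58 bases before its start. Flcn (lower, chr11:59810040-59810289, minus strand), an mTOR pathway gene, holds a cAMP response match 49 bases before its start. Each is written 5′ to 3′ along its gene.
Maff: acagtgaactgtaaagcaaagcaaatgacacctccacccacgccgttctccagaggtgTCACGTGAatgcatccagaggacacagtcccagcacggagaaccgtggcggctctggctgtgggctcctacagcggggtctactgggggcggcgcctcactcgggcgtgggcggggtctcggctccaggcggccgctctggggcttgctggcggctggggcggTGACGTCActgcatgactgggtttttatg
Prdm1: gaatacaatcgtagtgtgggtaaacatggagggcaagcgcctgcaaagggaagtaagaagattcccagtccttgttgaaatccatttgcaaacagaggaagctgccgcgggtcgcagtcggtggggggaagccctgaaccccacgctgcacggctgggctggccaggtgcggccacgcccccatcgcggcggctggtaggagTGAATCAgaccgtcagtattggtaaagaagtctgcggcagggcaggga
Rapgef5: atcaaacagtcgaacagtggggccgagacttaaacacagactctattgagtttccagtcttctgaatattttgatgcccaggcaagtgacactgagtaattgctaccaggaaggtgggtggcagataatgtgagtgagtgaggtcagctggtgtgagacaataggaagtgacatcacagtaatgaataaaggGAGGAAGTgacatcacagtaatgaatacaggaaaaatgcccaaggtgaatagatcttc
Flcn: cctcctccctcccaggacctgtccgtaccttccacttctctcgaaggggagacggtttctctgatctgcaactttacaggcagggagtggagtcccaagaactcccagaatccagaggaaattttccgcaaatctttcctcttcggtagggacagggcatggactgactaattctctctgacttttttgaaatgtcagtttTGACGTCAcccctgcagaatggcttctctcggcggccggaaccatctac

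Of 31 probe sets for fatty acid synthesis, desaturation and activation 6 were called higher and none lower, and of 61 for phospholipid and triglyceride metabolism 3 were higher and 8 lower. Without WT replicates 2 and 4 the counts were 2 and 0, and 2 and 6. Leaving out replicates 1 and 3 instead gave 6 and 0, and 6 and 7. Acaca, the acetyl-CoA carboxylase that commits carbon to fatty acid synthesis, was within background in WT (7.69, 7.63, 7.67 and 7.42) and at 9.84, 10.14, 10.26 and 9.76 in gated APP, at least 3.72-fold higher (adjusted p = 8.39e-07). Hacd2, a dehydratase of fatty acid elongation, was 12.31, 12.04, 12.40 and 11.92 in WT and 14.09, 14.83, 14.16 and 14.11 in gated APP, 2.13 ± 0.19 higher (adjusted p = 4.04e-08). Both enzymes were high in all 4 gated samples with no overlap. Echs1, the mitochondrial enoyl-CoA hydratase of fatty acid oxidation, was 9.31, 8.44, 10.15 and 7.91 in WT and 11.50, 11.80, 11.98 and 11.31 in gated APP, 2.69 ± 0.41 higher (adjusted p = 8.15e-05). WT values of Echs1 spread over 2.24, with replicates 2 and 4 lowest, and the difference was 1.92 without them (adjusted p = 0.00721).

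The lysosomal acid lipase Lipa was 1.61 higher and the lysosomal exonuclease Pld3 1.28 higher (adjusted p = 9.36e-05 and 9.4e-05). Pld1, a phospholipase D of vesicle traffic, was 12.13, 11.43, 11.82 and 11.14 in WT and 9.02, 9.75, 9.53 and 9.41 in gated APP, a difference of -2.20 ± 0.22 (adjusted p = 1.79e-07). Lpcat2, which makes platelet-activating factor and remodels phosphatidylcholine, was 16.52, 15.86, 16.33 and 15.98 in WT and 14.79, 14.62, 14.73 and 14.59 in gated APP, a difference of -1.49 ± 0.21 (adjusted p = 2.19e-05). The gated values of Lpcat2 spanned 0.20, and all lay below WT. Its relative Lpcat3 fell by 1.03 (adjusted p = 0.000599), and the phosphatidylserine synthase Ptdss2 was within background in gated APP and at least 1.93-fold lower (adjusted p = 0.00263).

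Of 53 sphingolipid and ganglioside genes 9 were called higher and 1 lower. Hexa, the alpha subunit of beta-hexosaminidase, which degrades ganglioside GM2, was 14.94, 14.61, 15.27 and 14.35 in WT and 16.42, 16.61, 16.63 and 16.71 in gated APP, 1.80 ± 0.20 higher (adjusted p = 1.31e-06). The ceramide synthase Cers6 was 1.57 higher (adjusted p = 0.000275). The ganglioside synthase B4galnt1 was within background in WT and at least 1.98-fold higher (adjusted p = 3.55e-05). The only lower member was St3gal5, which makes ganglioside GM3, the entry to the ganglioside series: 12.42, 11.92, 12.52 and 12.02 in WT and 11.17, 10.99, 10.74 and 10.99 in gated APP, a difference of -1.25 ± 0.20 (adjusted p = 0.00012). Without WT replicates 2 and 4 the counts were 5 higher and 1 lower.

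Of 147 glycan, sialic acid and heparan sulfate enzymes 10 were called higher and 11 lower, with 9 and 12 when WT replicates 2 and 4 were left out. Sialyltransferases differed gene by gene. St8sia6, which adds alpha-2,8-linked sialic acid, was within background in WT (7.43, 6.52, 7.42 and 7.24) and at 10.44, 10.92, 10.51 and 10.64 in gated APP, at least 5.75-fold higher (adjusted p = 3.58e-10). St6gal1, which makes the alpha-2,6 linkage read by several Siglec receptors, was 9.78, 9.61, 10.52 and 9.79 in WT and 11.64, 11.74, 11.34 and 11.69 in gated APP, 1.68 ± 0.30 higher (adjusted p = 0.000426). Gcnt2, the enzyme that branches polylactosamine chains, was 12.19, 11.35, 11.82 and 11.24 in WT and 15.20, 15.36, 14.58 and 14.93 in gated APP, 3.37 ± 0.42 higher (adjusted p = 4.99e-06), or 10.3-fold. Its relative of mucin-type glycans, Gcnt1, fell by 1.20 (adjusted p = 0.00251, and still called, at 0.0495, without WT replicates 1 and 3). The chondroitin sulfotransferase Chst7 was within background in gated APP and at least 1.76-fold lower (adjusted p = 0.000325).

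Of 59 glutathione, thioredoxin and NRF2 target genes 17 were called higher and 2 lower (median difference 0.43), which became 7 and 2 (median 0.27) without WT replicates 2 and 4 and 24 and 3 (median 0.64) without replicates 1 and 3. Prdx4, the peroxiredoxin of the endoplasmic reticulum, was 8.25, 7.11, 8.49 and 7.34 in WT and 10.33, 11.23, 10.75 and 9.87 in gated APP, at least 5.43-fold higher against the WT background (adjusted p = 2.1e-06). The mitochondrial superoxide dismutase Sod2 was 8.06, 7.42, 8.34 and 7.61 in WT and 10.03, 9.79, 10.52 and 9.46 in gated APP, at least 3.59-fold higher (adjusted p = 2.97e-05). The gated samples stood clear of WT in both, with WT replicates 2 and 4 lowest. Thioredoxin itself, Txn1, was 1.25 higher (adjusted p = 7.73e-05) and Prdx1 1.28 higher (adjusted p = 0.000779). The thioredoxin inhibitor Txnip, which also restrains glucose uptake, was 18.74, 18.80, 18.62 and 18.56 in WT and 16.35, 17.14, 16.83 and 16.85 in gated APP, a difference of -1.89 ± 0.17 (adjusted p = 5.1e-08). Txnip was among the brightest probe sets of the array and differed by the same -1.89 with either WT pair left out. Txnrd1, the cytosolic thioredoxin reductase, was 11.60, 10.34, 12.55 and 10.45 in WT and 1.94 higher in gated APP (adjusted p = 0.0159). It was not called without WT replicates 2 and 4 (difference 1.10, adjusted p = 0.348), nor without WT replicate 2, WT replicate 4 or APP replicate 3 alone.

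Of 64 nucleotide metabolism genes 12 were called higher and 2 lower, against 3 and 3 without WT replicates 2 and 4. Adssl1, the adenylosuccinate synthase of the purine nucleotide cycle, was 8.03, 7.14, 8.19 and 7.97 in WT and 11.28, 11.61, 11.79 and 11.33 in gated APP, at least 10.5-fold higher against the WT background (adjusted p = 2.98e-10). The purine nucleoside phosphorylase Pnp was 13.65, 13.16, 14.13 and 13 in WT and 11.29, 12.37, 12.44 and 11.80 in gated APP, a difference of -1.51 ± 0.31 (adjusted p = 0.00221). The ectonucleotidase Entpd1 (CD39), which degrades extracellular ATP, fell by 1.02 (adjusted p = 0.00322, and 0.0554 without WT replicates 1 and 3). In amino acid metabolism, the aspartate aminotransferase Got1 was 8.20, 8.41, 9.16 and 7.99 in WT and 11.81, 11.73, 11.14 and 10.94 in gated APP, 2.96 ± 0.32 higher (adjusted p = 5.95e-07), or 7.81-fold. The serine synthesis enzyme Psat1 was within background in WT and at least 2.25-fold higher (adjusted p = 5.85e-06). Phgdh, which precedes it in that pathway, fell by 0.86 (adjusted p = 0.0242) and was not called without WT replicates 2 and 4 (adjusted p = 0.199).

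Calls among protein synthesis genes depended on the WT samples. Of 76 mitochondrial ribosomal protein genes 15 were called higher and none lower (median difference 0.37), but 2 higher (median 0.23) without WT replicates 2 and 4 and 20 higher (median 0.46) without replicates 1 and 3. Of 69 translation initiation and elongation factors 15 were higher and 2 lower, which became 1 and 2, or 25 and 1. Of 22 aminoacyl-tRNA synthetases 4 were higher, which became 0 or 8, and of 32 genes of the citric acid cycle and pyruvate entry 6 were higher, which became 0 or 10. Mrpl33 was 9.67, 9.08, 10.31 and 9.12 in WT and 10.90, 11.77, 12.04 and 11.29 in gated APP, 1.96 ± 0.31 higher (adjusted p = 0.000127). Mrpl33 and Mrpl52 (1.38, adjusted p = 0.000318) were the 2 members called with either pair left out. The initiation factor subunit Eif3k was 12.13, 11.54, 12.71 and 11.55 in WT, again lowest in replicates 2 and 4, and 1.54 higher in gated APP (adjusted p = 0.00128, and 0.068 without that pair). Eef2k, the kinase that slows elongation, was 11.65, 11.55, 12.16 and 11.38 in WT and 9.54, 10.42, 9.37 and 10.41 in gated APP, a difference of -1.75 ± 0.26 (adjusted p = 5.92e-05). The fall of Eef2k held with either pair left out (-1.97 and -1.53).

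**Figure D4:**
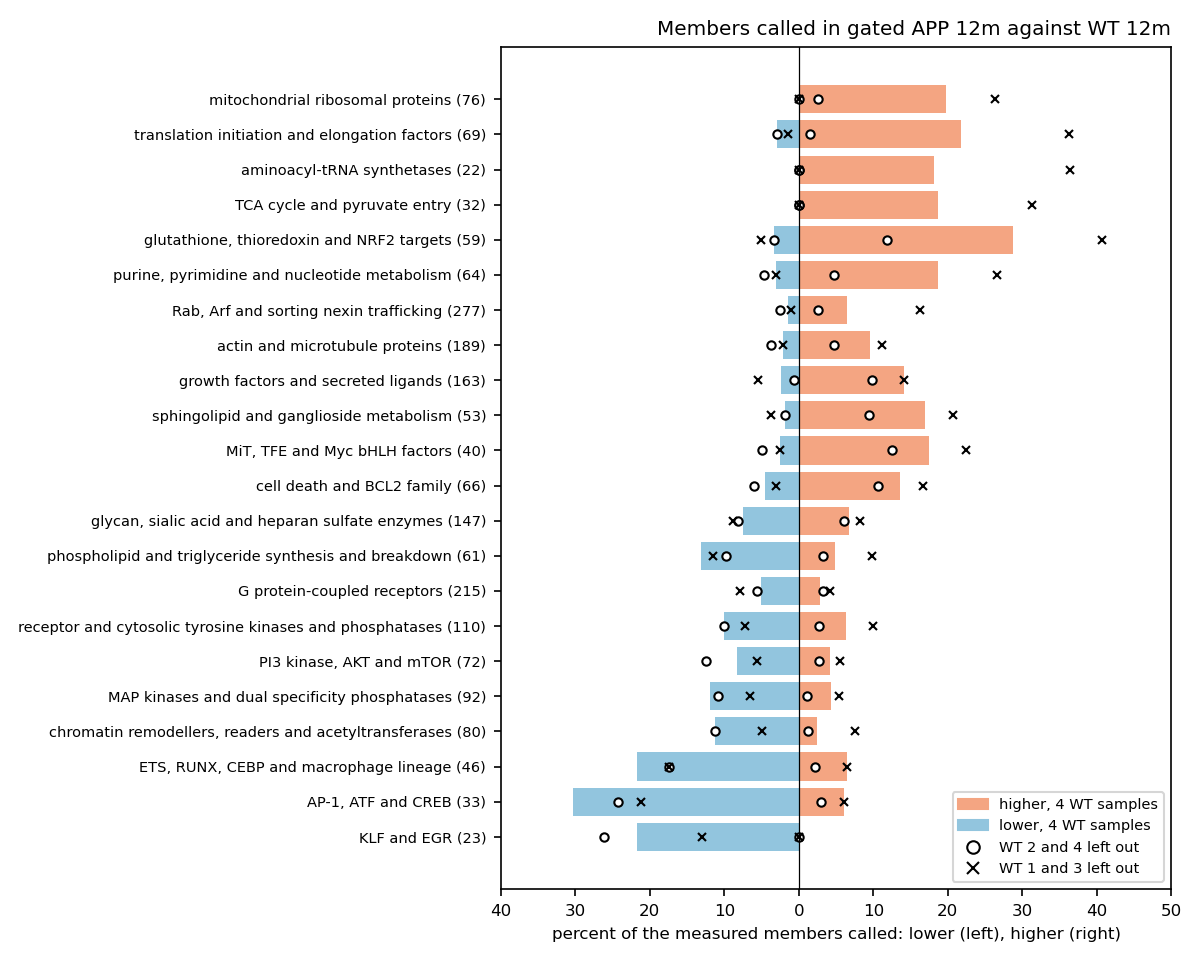
Percent of the measured members of 22 gene lists called higher (right) or lower (left) in gated APP against WT at 12 months, with 4 WT samples (bars), without WT replicates 2 and 4 (circles) and without replicates 1 and 3 (crosses); the number of members is in parentheses. For mitochondrial ribosomal proteins, translation factors, tRNA synthetases and the citric acid cycle the circles lie near 0 on the right side, while in the AP-1, KLF and ETS lists more members were called lower than higher in each of these settings.

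Of 64 genes of the endoplasmic reticulum 9 were called higher and 6 lower. These counts became 3 and 6 without WT replicates 2 and 4, and 14 and 4 without replicates 1 and 3. Ero1a, the oxidase of disulfide formation and a known target of hypoxia-inducible factor, was within background in WT (7.58, 6.72, 8.01 and 6.52) and at 10.47, 10.68, 10.19 and 9.93 in gated APP, at least 4.63-fold higher (adjusted p = 5.36e-08). Ssr4, of the translocon-associated complex, was 2.08 higher (adjusted p = 1.99e-05) and Sdf2l1, a chaperone cofactor, 1.27 higher (adjusted p = 0.000751). Among the lower members, Ppp1r15a (GADD34), which restores translation after stress, was 12.70, 12.68, 13.53 and 12.37 in WT and 11.50, 11.81, 11.75 and 11.09 in gated APP, a difference of -1.28 ± 0.24 (adjusted p = 0.000883). The cochaperone Dnajb9 fell by 1.22 (adjusted p = 0.000158). Of 136 splicing genes 7 were called higher and 8 lower. Their counts were 2 and 10 without WT replicates 2 and 4, and 15 and 6 without replicates 1 and 3. The higher ones were led by the small nuclear ribonucleoprotein component Lsm4 (1.56, adjusted p = 1.71e-05). Among the lower ones were the splicing factors Srsf2 and Srsf3 and their kinase Clk1, which fell by 0.93, 0.98 and 0.87 (adjusted p = 0.000112, 0.00341 and 0.00302). Of 54 autophagy genes 5 were higher and 2 lower, and none of the 5 was called without WT replicates 2 and 4.

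Of 115 ubiquitin conjugating enzymes and deubiquitinases 8 were called higher and 5 lower (11.3%, against 9.08% over all probe sets). Usp18, which removes the ubiquitin-like modifier ISG15, was within background in WT (8.33, 7.37, 7.35 and 7.72) and at 10.55, 10.49, 10.62 and 10.33 in gated APP, at least 5.25-fold higher (adjusted p = 4.07e-08). Ube2l6, the conjugating enzyme for the same modifier, was at least 2.35-fold higher (adjusted p = 1.42e-05) and the mitochondrial deubiquitinase Usp30 at least 2.48-fold higher (adjusted p = 1.43e-05). The endosomal deubiquitinase Stambpl1 was 12.52, 11.92, 12.27 and 11.84 in WT and 10.13, 10.88, 10.78 and 10.62 in gated APP, a difference of -1.53 ± 0.26 (adjusted p = 0.000262).

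Of 72 genes of PI3 kinase, AKT and mTOR 3 were called higher and 6 lower, and 2 and 9 without WT replicates 2 and 4. With replicates 1 and 3 left out instead, 4 were called higher and 4 lower. Flcn (folliculin), which activates the Rag GTPases RagC and RagD at the lysosome, was 13.68, 13.24, 13.55 and 12.55 in WT and 11.40, 12.31, 12.01 and 11.63 in gated APP, a difference of -1.42 ± 0.23 (adjusted p = 0.000178). Rragc, encoding RagC, was 13.09, 13.24, 12.74 and 12.35 in WT and 10.96, 12.05, 11.37 and 11.86 in gated APP, a difference of -1.29 ± 0.24 (adjusted p = 0.000682). The groups did not overlap in either gene. Lamtor3, of the lysosomal Ragulator scaffold, fell by 1.12 (adjusted p = 0.00128). Rragd, encoding RagD, went the other way, from 6.52, 5.61, 6.26 and 6.49 in WT to 8.27, 8, 8.36 and 8.14 in gated APP, and was at least 1.06-fold higher against the WT background (adjusted p = 2.98e-06). The translation repressor Eif4ebp1 was at least 1.88-fold higher (adjusted p = 0.00233).

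In kinase signalling, 4 of 92 genes of the MAP kinases and their phosphatases were called higher and 11 lower, and 1 and 10 without WT replicates 2 and 4. Leaving out replicates 1 and 3 instead gave 5 and 6. Mapkapk2, the p38 effector that stabilises cytokine mRNAs, was 13.76, 13.30, 13.84 and 13.47 in WT and 15.51, 15.59, 14.99 and 14.90 in gated APP, 1.66 ± 0.28 higher (adjusted p = 0.000325). The ERK phosphatase Dusp6, a feedback gene of ERK signalling, was 16.49, 16.46, 16.64 and 15.94 in WT and 14.83, 15.68, 15.21 and 14.73 in gated APP, a difference of -1.27 ± 0.24 (adjusted p = 0.000744). Spry1, another feedback inhibitor of receptor kinases, was at least 1.69-fold lower (adjusted p = 0.000225). Of 110 tyrosine kinases and phosphatases with their adaptors 7 were higher and 11 lower, and 3 and 11 without WT replicates 2 and 4. Leaving out replicates 1 and 3 gave 11 and 8, so the balance between the directions rested on which WT samples were used. The ephrin receptor Epha2 was at least 3.78-fold lower against the gated background (adjusted p = 1.1e-05), and the kinase Abl1 fell by 1.73 (adjusted p = 0.00225). Flt1, a receptor for VEGF, was within background in WT and at least 2.47-fold higher (adjusted p = 5.18e-05), and its ligand Vegfa was 11.08, 11.92, 10.93 and 11.67 in WT and 14.57, 13.17, 13.67 and 13.89 in gated APP, 2.42 ± 0.27 higher (adjusted p = 8.41e-07).

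Of 124 regulators of G protein and cyclic nucleotide signalling 7 were called higher and 8 lower. Gng12, a G protein gamma subunit, was 12.97, 12.47, 13.18 and 12.60 in WT and 15.41, 15.35, 15.24 and 15.17 in gated APP, 2.49 ± 0.19 higher (adjusted p = 2.2e-09). The gated values of Gng12 spanned 0.24, and all lay above WT. The alpha-arrestins Arrdc3 and Arrdc4, relatives of Txnip that sort membrane proteins, went in opposite directions. Arrdc3 was 13.40, 13.68, 13.78 and 13.77 in WT and 10.81, 10.57, 10.70 and 9.86 in gated APP, a difference of -3.17 ± 0.26 (adjusted p = 9.76e-09). Arrdc4 was 9.56, 9.99, 9.99 and 9.03 in WT and 12.09, 12.10, 11.84 and 11.45 in gated APP, 2.23 ± 0.30 higher (adjusted p = 1.46e-05). No sample overlapped between the groups in either arrestin. Rapgef5, an exchange factor for Rap GTPases, was 12.70, 12.28, 13.21 and 12.63 in WT and 10.14, 10.63, 11.02 and 10.64 in gated APP, a difference of -2.10 ± 0.22 (adjusted p = 4.65e-07). The alpha subunit Gna15 of haematopoietic cells fell by 1.86 and the brake on Gq signalling Rgs2 fell by 1.71 (adjusted p = 2.64e-05 and 6.95e-05).

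Secreted ligands were more often higher: 23 of 163 were called higher and 4 lower (16.6%, against 9.08% over all probe sets). Without WT replicates 2 and 4 the counts were 16 and 1. Above background in at least 1 of the groups were 44 members, with 16 called higher and 2 lower. Csf1, the ligand of the receptor that microglia need to survive, was 14.08, 13.45, 13.42 and 12.57 in WT and 17.07, 17.51, 16.58 and 16.92 in gated APP, 3.64 ± 0.29 higher (adjusted p = 5.94e-09), while its receptor Csf1r fell by 0.72 (adjusted p = 0.00114). The chemokine Cxcl16 was 14.38, 13.62, 13.92 and 13.19 in WT and 15.83, 15.76, 15.93 and 15.56 in gated APP, 1.99 ± 0.22 higher (adjusted p = 1.14e-06). Cxcl13 was within background in all WT samples (5.77, 6.33, 6.57 and 6.96) and at 10, 9.99, 9.95 and 9.75 in gated APP, at least 3.52-fold higher (adjusted p = 4.54e-05). The 4 lower ligands were Igfbp4, Sparc and, within background in both groups, Vegfd and Fgf11. Igfbp4, an inhibitor of insulin-like growth factors, fell by 0.76 (adjusted p = 0.00868, and 0.23 without WT replicates 2 and 4). Sparc, a matrix protein, fell by 0.43 (adjusted p = 0.0288) and was not called without that pair (adjusted p = 0.0671) or without WT replicates 1 and 3 (0.13). Vegfd was not called without replicates 2 and 4 (adjusted p = 0.0621), nor Fgf11 without replicates 1 and 3 (adjusted p = 0.0723).

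Of 189 actin and microtubule proteins 18 were called higher and 4 lower (11.6%, against 9.08% over all probe sets). Without WT replicates 2 and 4 the counts were 9 and 7. Elmo1, which with Dock proteins activates Rac during engulfment, was 12.33, 11.68, 12.81 and 12.52 in WT and 10.10, 10.41, 10.40 and 10.12 in gated APP, a difference of -2.08 ± 0.23 (adjusted p = 1.11e-06). Srgap2, a GTPase activating protein of membrane protrusions, was 15.80, 15.57, 15.90 and 15.39 in WT and 13.94, 14.03, 13.91 and 13.58 in gated APP, a difference of -1.80 ± 0.19 (adjusted p = 6.45e-07). The exchange factors Dock4, Dock8 and Dock10 fell by 2.01, 1.23 and 1.69 (adjusted p = 7.73e-05, 0.000232 and 2.9e-06). All these regulators were low in every gated sample. Rhoc, a small GTPase of cell migration, was 9.09, 8.30, 9.45 and 8.58 in WT and 11.88, 12.15, 12.12 and 11.67 in gated APP, 3.10 ± 0.30 higher (adjusted p = 1.26e-07), or 8.57-fold. Rhob, in contrast, fell by 1.29 (adjusted p = 6.76e-05). Myo1e, a myosin of membranes and phagocytic cups, was 8.58, 7.97, 8.32 and 7.92 in WT and 13.16, 13.82, 13.63 and 13.46 in gated APP, 5.32 ± 0.35 higher (adjusted p = 3.12e-10), or 40-fold. The actin capping protein Capg was at least 8.74-fold higher against the WT background (adjusted p = 1.62e-09), and coronin Coro1c 2.04 higher (adjusted p = 2.06e-05).

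Of 277 Rab, Arf and sorting nexin trafficking genes 18 were called higher and 4 lower, a share near that of the whole array. The counts were 7 and 7 without WT replicates 2 and 4 and 45 and 3 without replicates 1 and 3. With all 4 WT samples, 14 of the 176 members above background in at least 1 of the groups were higher and 4 lower. Rab7b, a late endosomal GTPase, was within background in WT (7.70, 7.67, 6.69 and 7.50) and at 10.54, 11.12, 9.95 and 10.41 in gated APP, at least 5.28-fold higher (adjusted p = 6.49e-08). The lipid transfer protein Vps13c was 1.47 higher (adjusted p = 2.15e-05). Rab20, induced by hypoxia and placed on phagosomes, was at least 1.95-fold higher (adjusted p = 0.000118).

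At the cell surface, 6 of 215 G protein-coupled receptors were called higher and 11 lower (7.91%, against 9.08% over all probe sets). Of the 215, 164 were within background in both groups. Without WT replicates 2 and 4 the counts were 7 and 12. Hcar2, the receptor for niacin and beta-hydroxybutyrate, was 10.99, 10.05, 9.61 and 9.30 in WT and 13.62, 14.54, 14.17 and 13.26 in gated APP, 3.91 ± 0.38 higher (adjusted p = 1.64e-07), or 15-fold. Ptger4, the EP4 receptor for prostaglandin E2, was within background in WT (7.37, 7.27, 7.40 and 7.57) and at 10.71, 12.11, 11.14 and 11.49 in gated APP, at least 9.56-fold higher (adjusted p = 3.79e-09). Cxcr4, the receptor for Cxcl12, was at least 7.48-fold higher (adjusted p = 2.2e-09) and the acid-sensing receptor Gpr65 at least 4.59-fold higher (adjusted p = 1.24e-07). Lpar6, a receptor for lysophosphatidic acid, was 13.60, 13.36, 13.19 and 13.14 in WT and 10.72, 11.51, 10.81 and 11.01 in gated APP, a difference of -2.31 ± 0.28 (adjusted p = 4.14e-06). The adhesion receptor Adgrg1 (GPR56) was 15.50, 15.28, 15.81 and 15.16 in WT and 13.52, 13.41, 13.35 and 13.48 in gated APP, a difference of -2 ± 0.22 (adjusted p = 8.41e-07). Gated values of Adgrg1 spanned 0.17, and all receptors given here with sample values were apart between the groups. P2ry13, the ADP receptor, fell by 1.99, Gpr165 fell by 2.26 and the oxysterol receptor Gpr183 fell by 1.39 (adjusted p = 1.2e-05, 7.16e-05 and 0.00826).

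Among 126 integrins and adhesion molecules 8 were higher and 10 lower. Alcam, an adhesion molecule of activated leukocytes, was 2.54 higher (adjusted p = 2.39e-07), and the fibronectin receptor subunit Itga5 was at least 4.59-fold higher against the WT background (adjusted p = 4.65e-07). Ceacam1, an inhibitory adhesion receptor, was 9.88, 9.70, 9.85 and 9.66 in WT and 7.37, 8.44, 7.54 and 8 in gated APP, a difference of -1.94 ± 0.23 (adjusted p = 3.52e-06). Its relative Ceacam2 is similar in sequence, and signal shared between their probe sets was not tested. Of 87 tetraspanins and related membrane proteins 6 were higher and 4 lower (11.5%, against 9.08% over all probe sets). Tspan17 was within background in WT and at least 1.54-fold higher (adjusted p = 3.36e-07), while Tspan14, a partner of the protease ADAM10, fell by 1.29 (adjusted p = 0.00143).

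Of 66 cell death and BCL2 family genes 9 were called higher and 3 lower. Cdkn1a, the cyclin-dependent kinase inhibitor p21, was 10.39, 10.09, 11.59 and 10.08 in WT and 14.92, 14.91, 14.95 and 14.12 in gated APP, 4.19 ± 0.38 higher (adjusted p = 4.29e-08), or 18.2-fold. Bcl2a1c, an antiapoptotic gene of the A1 cluster, was 10.67, 10.29, 10.42 and 10.42 in WT and 12.53, 11.84, 13.17 and 11.90 in gated APP, 1.91 ± 0.24 higher (adjusted p = 6.97e-06). Its near-identical copies make it uncertain which A1 gene the probe set reads. Zbp1, a sensor of nucleic acids that triggers necroptosis, was at least 3.57-fold higher against the WT background (adjusted p = 2.71e-05). Casp8, the initiator caspase that restrains necroptosis, was 14.11, 13.94, 13.96 and 14.22 in WT and 12.73, 13.14, 12.86 and 12.87 in gated APP, a difference of -1.16 ± 0.15 (adjusted p = 6.21e-06). WT samples of Casp8 spanned 0.28 and gated samples 0.41, with a gap of 0.80 between the groups.

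Differences of 2- to 4-fold with both groups above background numbered 375 higher and 260 lower. Of these, 185 and 52 lost their call without WT replicates 2 and 4. The 15 on each side with the smallest adjusted p, all of which kept their call with either pair left out, were read further. The higher ones held lysosomal enzymes, Fuca1 (fucosidase), Hexa, Ctsl, Ctsb and Gnptab, which tags lysosomal enzymes with mannose 6-phosphate; class I histocompatibility genes, H2-K1, H2-M3 and the pseudogene H2-T-ps; and Cadm1, Cd34, Nap1l1, Cxcl16, Mt1, Hmgn3 and Bcl2a1c. Gnptab was 9.61, 9.28, 9.72 and 9.11 in WT and 11.62, 11.64, 11.08 and 11.25 in gated APP, 1.97 ± 0.23 higher (adjusted p = 2.48e-06). Cadm1, an immunoglobulin-family adhesion molecule, was 11.79, 11.66, 11.89 and 11.97 in WT and 13.50, 14.30, 13.76 and 13.73 in gated APP, 2 ± 0.19 higher (adjusted p = 1.44e-07). The metal-binding protein Mt1 was 10.46, 10.42, 10.02 and 10.11 in WT and 11.94, 12.09, 11.93 and 12.16 in gated APP, 1.78 ± 0.20 higher (adjusted p = 1.41e-06). WT samples of Cadm1 and Mt1 did not split into the pairs 1 and 3 against 2 and 4.

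The lower ones were Txnip, Agmo, Jun, Srgap2, P2ry12, Adgrg1, Fcrl1, Cd164, Dock10, Ceacam1, Cacnb2, Ivns1abp, Slc40a1, Casp8 and Hjurp. Agmo, the alkylglycerol monooxygenase that cleaves ether lipids, was 12.54, 12.48, 12.73 and 12.42 in WT and 10.17, 10.74, 10.87 and 10.41 in gated APP, a difference of -2 ± 0.20 (adjusted p = 1.63e-07). Cd164, a sialomucin, was 17.88, 17.62, 17.93 and 17.70 in WT and 15.85, 16.55, 16.25 and 16.33 in gated APP, a difference of -1.54 ± 0.17 (adjusted p = 1.47e-06). Ivns1abp, an actin-binding kelch protein, differed by -1.75 ± 0.22 (adjusted p = 5.41e-06), and Fcrl1, an Fc receptor-like protein, by -1.89 ± 0.21 (adjusted p = 1.41e-06). Hjurp, the chaperone of the centromeric histone CENP-A, was 11.22, 11.20, 11.60 and 11.28 in WT and 9.70, 10.25, 9.73 and 10 in gated APP, a difference of -1.41 ± 0.18 (adjusted p = 1.03e-05). In each of these genes the highest gated sample was below the lowest WT sample.

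**Figure D5:**
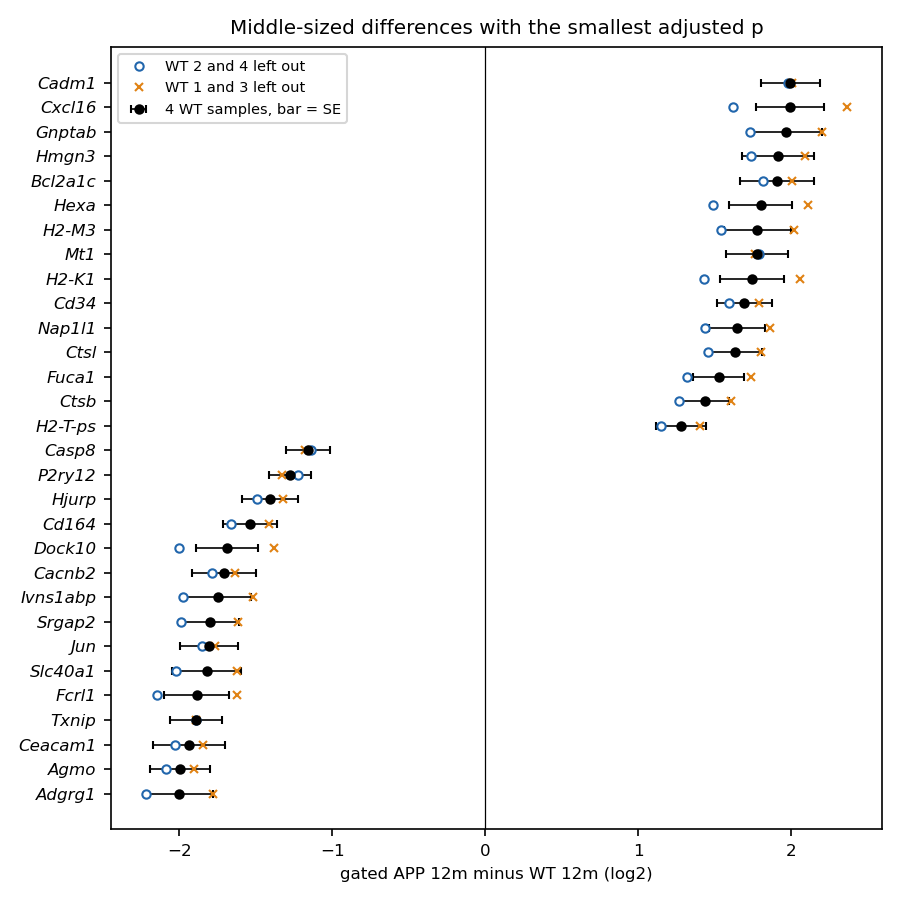
Gated APP minus WT difference (log2, black points with SE) of the 15 higher and 15 lower probe sets of middle size with the smallest adjusted p, beside the difference without WT replicates 2 and 4 (open blue) and without replicates 1 and 3 (orange crosses). All marks of a gene lie on the same side of 0, and each gene was called with either pair left out.

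Among all called genes with both groups above background, the largest differences to lose their call without WT replicates 2 and 4 included Tnfaip2, Lmna and Hspa1a. The TNF-induced gene Tnfaip2 was 9.53, 8.70, 10.36 and 8.95 in WT and 11.53, 12.08, 12.13 and 10.94 in gated APP, 2.29 ± 0.51 higher (adjusted p = 0.00422), and 1.73 without that pair (adjusted p = 0.118). Lmna, encoding nuclear lamin A and C, was 11.29, 9.93, 12.05 and 10.88 in WT and 13.21, 13.14, 13.54 and 12.09 in gated APP. It was 1.96 ± 0.55 higher (adjusted p = 0.0247), and 1.32 without the pair (adjusted p = 0.312). The heat shock gene Hspa1a was 10.05, 11.72, 10.36 and 8.96 in WT, so that replicate 2 alone was far up, and 8.38, 8.36, 8.42 and 7.98 in gated APP. Its difference of -1.99 ± 0.63 (adjusted p = 0.049) was not called without replicates 2 and 4 (adjusted p = 0.136), nor without 1 and 3 (adjusted p = 0.0857). The endogenous App gene was 10.67, 9.64, 10.97 and 10.23 in WT and 11.14, 11.55, 11.24 and 11.39 in gated APP. Its difference of 0.95 ± 0.29 (adjusted p = 0.0426) was 0.51 without WT replicates 2 and 4 (adjusted p = 0.487), and the call was also lost without any 1 of WT replicates 2 and 4 or of the 4 gated samples. Whether its probe set also reads the human transgene was not tested. Averaged over Kdm5d, Uty and Eif2s3y, which lie on the Y chromosome, the level was 7.11, 6.32, 7.31 and 6.06 in WT and 6.75, 7.13, 5.96 and 4.16 in gated APP. No label gives a sex, and with this average as a covariate 2441 probe sets were called.

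Gated APP and gated tau microglia differed in 206 probe sets (0.928%), 139 higher (0.626%) and 67 lower (0.302%) in APP. The comparison shares its gated APP samples with the comparison against WT. Several transporters and factors described above differed here too. Slc2a1 was 16.48 ± 0.22 (SD, n = 4) in gated tau, lower than gated APP by 1.42 (adjusted p = 0.00714). Hif1a was 13.54 ± 0.35 in gated tau, Nfil3 11.05 ± 1.13 and Srebf2 9.55 ± 0.11, lower than gated APP by 1.37, 2.20 and 1.36 (adjusted p = 0.000613, 0.00573 and 0.000861). Jun and Fos, in contrast, were 15.11 ± 0.26 and 12.01 ± 0.41 in gated tau, and neither was called against gated APP (adjusted p = 0.997 and 0.997). The hypoxia-induced prolyl hydroxylase Egln3 had the smallest adjusted p, at 12.02 ± 0.34 in gated APP, 8.10 ± 0.50 in gated tau and 6.54 ± 0.15 in WT (APP minus tau 3.91 ± 0.22, adjusted p = 3.01e-10). The RNA-editing enzyme Adarb1 was 2.62 ± 0.30 higher in gated APP (adjusted p = 1.36e-05) and the membrane protein Plp2 2.71 ± 0.27 higher (adjusted p = 1.36e-06). Higher in gated tau were the complement factor Cfb, at 9.22 ± 0.81 against 5.80 ± 0.57 in gated APP (adjusted p = 2.07e-07), the oxidised lipoprotein receptor Olr1 and the matrix protein Postn (APP minus tau -3.87 ± 0.45 and -3.05 ± 0.29). Gated tau samples were also 9 rather than 12 months old by their age field, so age and model cannot be told apart here.

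The change from 3 to 12 months differed between APP and WT in 844 probe sets (3.80%), 627 higher (2.82%) and 217 lower (0.977%) in APP. This contrast shares its 12-month samples with the main comparison, and the 3-month APP samples carried no gate. Nfil3 was 9.17 in WT and 8.89 in APP at 3 months and 8.35 and 13.25 at 12 months, a difference of changes of 5.18 ± 0.61 (adjusted p = 8.4e-06). Clic4 gave 4.22 ± 0.53 (adjusted p = 1.84e-05) and Kcnd1 -2.98 ± 0.48 (adjusted p = 0.000413). Klf2 and Klf6, although lower at 12 months, gave -1.09 ± 0.63 and -0.70 ± 0.32 (adjusted p = 0.439 and 0.289) and were not called. The same Y-linked average was 4.14 to 4.62 in the 3-month APP samples and 6.98 to 7.46 in the 3-month WT samples. With this average in the model 447 probe sets were called, 307 higher and 140 lower.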

How the data were processed

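The deposited values are log2 intensities that the authors summarised per probe set by RMA, as the submitters' processing notes list RMA and the Transcriptome Analysis Console; versions and genome build are not given in the sources used here. Per the labels' protocols, TriPure-extracted total RNA was amplified with a 3′ in vitro transcription kit and biotin-labelled. RMA quantile-normalizes probe intensities to 1 distribution before summarising them, so a shift shared by most genes would be lost. The summarised values still differed between arrays, with medians of 6.87 to 7.13. Precision is limited by the few arrays, and the median SE of a gated APP minus WT difference was 0.23.

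Group means were fitted on all 23 samples with lmFit and eBayes (limma 3.58.1, R 4.3.3) and p-values adjusted over 22203 probe sets by Benjamini-Hochberg; every adjusted p in the text comes from this moderated test or a named alternative. The script was tested on simulated data. Lists were matched by gene symbol, and several probe sets of a gene were counted separately. Probe sets of near-identical genes (Bcl2a1, H2 class I, Ceacam) can share signal. Promoters came from a RefSeq table (GRCm38.p6); no genome was used.

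Members and lists were chosen with earlier results of these data known. The genes named by rule were up to 3 rising and 3 falling called members of each list with non-overlapping groups and the higher group above background, the 15 middle-sized genes each way with the smallest adjusted p, control genes, up to 5 called genes that lost their call without WT replicates 2 and 4, and up to 10 genes each way between the gated groups. Other called members were named after their values were seen. Alternatives covered scaling, a filter on dim probe sets, the variance model, array weights, covariates, the samples in the fit and samples left out.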

Additional observations from a re-analysis of the deposited data

Results flagged for a closer look

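WT replicate 2 stood apart in a named gene of the main comparison: Cd34, a cell surface sialomucin, was 13.41, 13, 13.43 and 13.45 in WT replicates 1 to 4, so replicate 2 was lowest by a gap past Dixon's limit. It was the only such case in 92 groups of 4 tested, where chance flags about 1 in 20 groups. Cd34 was 14.62, 15.43, 15.02 and 14.99 in gated APP, a difference of 1.69 ± 0.18 (adjusted p = 5.67e-07), and 1.59 without WT replicates 2 and 4 (adjusted p = 5.45e-05).

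The change from 3 to 12 months differed between APP and WT, by limma's interaction contrast, in 844 probe sets (3.80%). With the Y-linked average in the model 447 were called. The contrast shares its 12-month samples with the main comparison. All 30 of the middle-sized genes named there were called, but they had been picked by adjusted p on those same samples. Their calls in this contrast are therefore no separate support. The largest called rise of a probe set with a gene symbol was that of Axl, a receptor kinase that binds dying cells and amyloid, whose difference of changes was 8.11 ± 0.51 (SE, adjusted p = 2.91e-10). The largest called fall was that of the signalling adaptor Bank1, with -4.26 ± 0.41 (SE, adjusted p = 3.68e-07). The 3-month APP samples carried no Clec7a gate, so age and gate cannot be told apart in these values.

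Gated APP and gated tau microglia, which have the same WT samples as their reference, differed in 206 probe sets (0.928%) by limma's test. The genes of class II histocompatibility molecules were among those higher in gated tau: H2-Eb1 was 14.15 ± 0.19 (SD, n = 4) in gated tau, 9.63 ± 0.48 in gated APP and 8.87 ± 0.78 in WT.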

How the results depend on the processing

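The 2015 calls of gated APP against WT became 1326 (427 lower) in a fit on the 8 samples alone, 1264 (627 higher) without WT replicates 2 and 4, and, in an alternative chosen after seeing the data, 3303 (1575 lower) without WT replicates 1 and 3. They were 1795 with the replicate number as a replicate block in the 8-sample fit, of which 1471 were among the 2015. Same-numbered samples correlated in their deviations by 0.025, 0.1005, 0.473 and 0.309, and differently numbered ones by -0.395 to 0.183. The main test did not take the numbers as pairs, and whether they mark pairs was not tested. With single samples left out the counts were 1508 to 2807 in all, 907 to 1558 higher, and 509 (without APP replicate 1) to 1249 (without WT replicate 3) lower. Of the 277 named differences none turned its sign under these settings. The calls of 63 were lost without WT replicates 2 and 4, 34 without 1 and 3, 37 in the 8-sample fit, 30 with the replicate block, 16 with median centring, 13 with array weights and 13 to 27 with a single sample left out.

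The 206 calls between the gated groups became 130 (84 higher) with the filter on dim probe sets, and 107 rather than 67 were lower with the chemosensory median as a covariate. Without single samples they were 147 to 223, 93 to 156 higher and 50 to 79 lower. The 844 interaction calls became 447 (307 higher, 140 lower) with the Y-linked average in the model, 1575 (987 and 588) with array weights, and 1612 (992 and 620) without WT replicates 1 and 3. Of the higher ones 343 were called without WT replicates 2 and 4, while 458 were lower with the chemosensory covariate and 138 with median centring. Without single samples they were 597 to 1190, 455 to 845 higher, and 142 (without 3-month APP replicate 2) to 345 (without WT replicate 3) lower. The cause of these shifts was not tested. Genes near background have differences compressed towards 0, and their calls are limited by signal over background.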
